A study of Mus musculus with 6 samples.

Results

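The exon junction complex and its partners were followed in mouse large pre-B cells of the early stage (early LPre-B cells) through 10 genes: *Eif4a3*, *Magoh*, *Magohb*, *Rbm8a* and *Casc3* of the complex itself, *Rnps1*, *Acin1*, *Sap18* and *Pnn* of the ASAP and PSAP complexes, and *Ncbp1* of the nuclear cap-binding complex. The rows were found by symbol, through the Entrez ID of each row. All 10 had a row, out of 13426 genes in all. In RNA sequencing, 3 libraries labelled *Upf1*-cKO were compared with 3 labelled Ctrl. The cKO mice were Upf1 Flox/Flox and Mb1 Cre/+, and the Ctrl mice were Upf1 Flox/Flox and Mb1 +/+, so both groups carried the floxed *Upf1* alleles and the cKO group alone carried Cre. Cre is driven from the *Cd79a* (Mb1) locus, which is active in B lineage cells, and cKO mice therefore had a single intact copy of *Cd79a*. Per the study's methods, mice were of C57BL/6 background, male and female and age-matched, and cells were sorted from bone marrow as lineage-, B220+, sIgM-, CD43+, CD2- cells of high forward scatter. The number of animals behind each library was not given in the sources used here, so the tests measure the spread between these libraries.

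The exon junction complex is laid down by the spliceosome on spliced mRNA just upstream of each exon-exon junction. EIF4A3, a DEAD-box RNA helicase, clamps the RNA and is locked there by the heterodimer of RBM8A (Y14) with MAGOH or its paralog MAGOHB, while CASC3 (MLN51, also called Barentsz) joins as a further core component. The peripheral proteins RNPS1 and SAP18 form the ASAP complex with ACIN1 (acinus) or the PSAP complex with PNN (pinin), which act in splicing. NCBP1 (CBP80) is the large subunit of the complex that binds the cap of newly made mRNA. A junction complex left downstream of a stop codon helps to mark an mRNA for nonsense-mediated decay (NMD), the pathway in which the helicase UPF1 acts.

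Values are normalised reads: the read number of a gene plus 0.5, scaled to 1000000 reads of effective library size. The libraries held between 9732498 and 11006834 reads, and the members were read deeply, from 95 reads for *Magohb* in the shallowest case to 4717 for *Acin1* in the deepest. The *Upf1* row was not lower in the libraries labelled cKO. It held 203 to 260 normalised reads in Ctrl and 283 to 308 in cKO, a log2 fold change of 0.31 (limma, Benjamini-Hochberg adjusted p = 0.00696). The row covers the whole gene, overlaps *Gdf1* and *Cers1*, and does not resolve the removed exons. For the protein, the study reported by immunoblot that UPF1 was abolished in pro-B and early LPre-B cells of cKO mice. The B lineage markers, 11 of 11 with a row, summed to 2599 to 2868 normalised reads in Ctrl and 2574 to 2720 in cKO. Single markers did move, with 4 called higher, *Kit* (2.07) and *Rag1* (1.55) among them, and 3 lower, among them *Cd79a* (-1.58), the locus that holds Cre (log2 fold changes). No T or NK cell marker of 6 had a row. The neutrophil list, 8 of 8 with a row, moved with the groups. It summed to 122.6, 17.9 and 14.0 normalised reads in Ctrl 1 to 3 and to 462.4, 355.0 and 329.3 in cKO 1 to 3, with *Elane* at 0.159 to 0.859 in Ctrl and 1.49 to 2.23 in cKO, and 4 of the 8 genes were called higher. The dendritic cell markers, 3 of 4 with a row, summed to 3.99 to 5.37 in Ctrl and 30.1 to 33.5 in cKO. In cKO *Flt3* made up most of the sum, and it was the list's single call. *Itgax* (log2 fold change -0.53) and *Siglech* (0.37) went opposite ways and did not pass. *Cd2* and *Il2ra* of the later pre-B stage summed to 14.2 to 17.5 in Ctrl and 2.02 to 2.71 in cKO. The part of these lists in the results on the members was not tested. In such bulk libraries, fewer cells of a type and less RNA per cell cannot be told apart.

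Among the 10 members, 4 fell in *Upf1*-cKO cells, 1 rose and 5 did not pass the test. *Magoh* and *Eif4a3* fell furthest beyond their spread. *Ncbp1* and *Sap18* fell and *Casc3* rose, each with a call that some alternative settings ended. Over the whole table limma called 52.7% of genes at an adjusted p below 0.05, with 27.7% higher and 25.0% lower, against 1 of 10 members higher and 4 of 10 lower. With both directions counted together, the share of members called was near that of the table. The median log2 fold change of the members was -0.17, against 0.01 over all 13426 genes. Without Ctrl 3, 2 members were higher (*Casc3* and *Acin1*) and 3 lower (*Eif4a3*, *Magoh* and *Ncbp1*). Over all 13426 genes, 3535 were then higher and 3169 lower. Ctrl 3 stood apart for *Pnn* and over the whole table. The chi-square per degree of freedom of its reads was 18.98 against Ctrl 1 and 22.02 against Ctrl 2. It was 8.36 between Ctrl 1 and Ctrl 2 and at most 6.29 between cKO libraries.

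**Figure D1:**
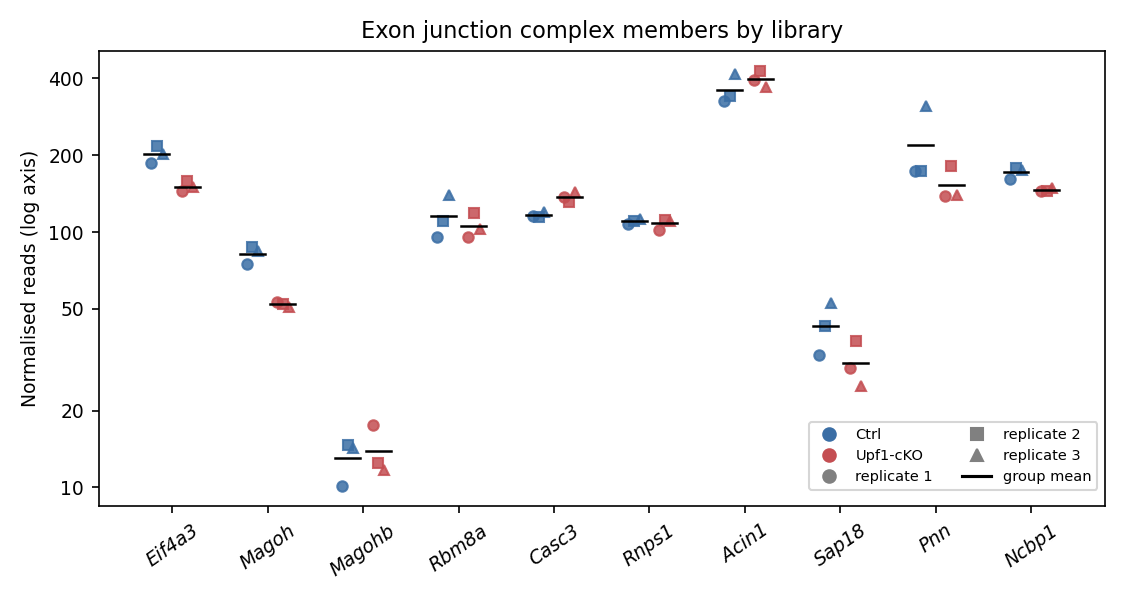
Normalised reads of each member (log axis) in the 3 Ctrl and 3 *Upf1*-cKO libraries, with 1 point per library. The cKO points of *Eif4a3*, *Magoh* and *Ncbp1* lie below every Ctrl point, those of *Casc3* lie above, and a single Ctrl point of *Pnn* at 310 stands apart.

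The genes of the complex core were considered first. *Eif4a3*, which encodes the RNA-clamping helicase (GRCm38 chr11:119288363-119300043), held 186, 217 and 202 normalised reads in Ctrl 1 to 3 and 144, 158 and 150 in cKO 1 to 3. Every cKO library was below every Ctrl library. The mean went from 202 ± 15.5 to 151 ± 7.01 (SD, n = 3 each), and *Eif4a3* fell by 0.42 on the log2 scale (95% interval -0.58 to -0.25, limma adjusted p = 0.00023), a change of -25.1%. The call held in all 19 alternative analyses, with log2 fold changes between -0.53 and -0.21 and adjusted p-values of at most 0.0418.

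*Magoh*, which encodes a subunit of the locking heterodimer, held 74.9, 87.0 and 84.2 normalised reads in Ctrl and 53.4, 52.4 and 50.7 in cKO. The cKO libraries lay within a narrow band under all of the Ctrl libraries. The mean went from 82.0 ± 6.32 to 52.2 ± 1.37 (SD, n = 3 each), a log2 fold change of -0.64 (95% interval -0.83 to -0.45, limma adjusted p = 7.87e-06) or a change of -35.8%. Of the 10 members it had the largest fold change and the smallest adjusted p, and it too passed in all 19 alternatives, between -0.75 and -0.44.

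Its paralog *Magohb* did not follow. *Magohb* held 10.1, 14.7 and 14.2 normalised reads in Ctrl and 17.6, 12.5 and 11.7 in cKO. The groups overlapped, with the lowest value of all in Ctrl 1 and the highest in cKO 1. The log2 fold change was 0.08, with a 95% interval of -0.28 to 0.45 (limma adjusted p = 0.704), so changes within these bounds in either direction were not excluded. Its sign turned under median centring and quantile normalisation, and without Ctrl 1 or cKO 1, with values down to -0.09.

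*Magoh* (GRCm38 chr4:107879755-107887424, plus strand) and *Magohb* (chr6:131284389-131293244, minus strand) lie on different chromosomes and encode closely related proteins. The 441 coding bases of Magoh-201 and the 447 of Magohb-201 aligned over 441 positions, of which 357 (81.0%) were identical and 84 differed, and the longest stretch shared by the transcripts was 17 bases. Exon 4 of both genes, 83 bases long, was chosen because it holds the longest identical run of the coding alignment, so it need not stand for the rest. It is given from the start of the exon in the direction of transcription, with the 12 bases that differ between the genes in capitals, from GENCODE transcripts on GRCm38 (chr4:107884917-107884999, plus strand, and chr6:131285643-131285725, minus strand).
Magoh: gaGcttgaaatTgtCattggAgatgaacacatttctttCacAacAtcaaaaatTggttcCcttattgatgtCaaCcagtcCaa
Magohb: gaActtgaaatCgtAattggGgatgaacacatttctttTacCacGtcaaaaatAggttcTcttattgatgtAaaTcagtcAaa

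*Rbm8a* (chr3:96629928-96633791), which encodes the partner of both paralogs, held 96.0, 111 and 140 normalised reads in Ctrl and 95.6, 119 and 103 in cKO. The groups overlapped almost fully, and Ctrl 3 was the highest library. The log2 fold change was -0.11 (95% interval -0.38 to 0.15, limma adjusted p = 0.461). It was 0.09 after scaling to total reads and 0.03 without Ctrl 3.

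*Casc3* (chr11:98809808-98833807), the core component that joins the other subunits, went the opposite way from *Eif4a3* and *Magoh*. It held 116, 115 and 120 normalised reads in Ctrl and 138, 131 and 144 in cKO. Each cKO library exceeded each Ctrl library. The mean went from 117 ± 2.86 to 137 ± 6.28 (SD, n = 3 each), and *Casc3* rose by 0.23 on the log2 scale (95% interval 0.07 to 0.39, limma adjusted p = 0.0159), a change of 17.5%. The locus overlaps *Gm12359*, whose reads counting without strand would not separate. The row of *Gm12359* itself held a mean of 4.03 normalised reads in Ctrl and 2.70 in cKO. The call was lost without cKO 1 (adjusted p = 0.0585) or cKO 3 (adjusted p = 0.0936), without an intensity trend in limma (adjusted p = 0.0619) and under median centring (0.12, adjusted p = 0.173).

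**Figure D2:**
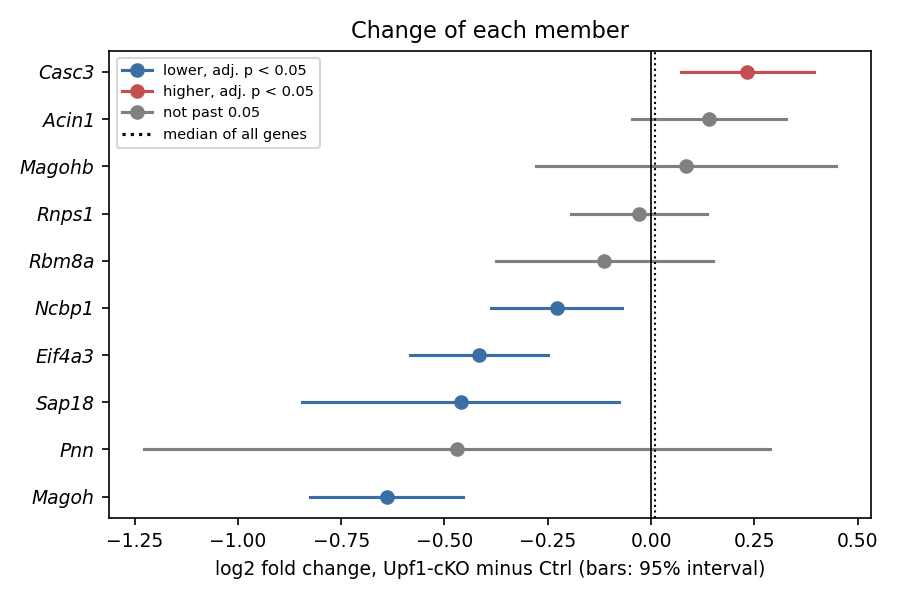
log2 fold change (*Upf1*-cKO minus Ctrl) of each member on the log2(value + 1) scale with its 95% interval from limma, and the median of all genes as a dotted line. *Magoh* at -0.64 and *Eif4a3* at -0.42 have intervals clear of 0, while the interval of *Pnn* is the widest, from -1.23 to 0.29.

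The genes of the ASAP and PSAP complexes showed 1 call among 4, and no member had groups that did not overlap. *Rnps1* (chr17:24414646-24425898), whose protein is common to both complexes and activates splicing, held 108, 111 and 113 normalised reads in Ctrl and 102, 112 and 110 in cKO. All 6 values lay close together. The log2 fold change was -0.03, and its 95% interval of -0.19 to 0.13 (limma adjusted p = 0.771) was among the narrowest of the members. The sign turned after quantile normalisation (0.02), after scaling to total reads (0.17) and without cKO 1 (0.01).

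*Acin1* (chr14:54642161-54686965), the scaffold that defines ASAP, held 326, 340 and 417 normalised reads in Ctrl and 395, 425 and 369 in cKO. The groups overlapped because Ctrl 3 lay within the range of the cKO libraries. The log2 fold change was 0.14 (95% interval -0.05 to 0.33, limma adjusted p = 0.197). Without Ctrl 3 it was 0.25 and passed the test (adjusted p = 0.0119). It also passed after quantile normalisation (0.32, adjusted p = 0.00324) and scaling to total reads (0.34, adjusted p = 0.00988). It was smaller without Ctrl 1 (0.07, adjusted p = 0.506), without cKO 2 (0.09, adjusted p = 0.523) and under median centring (0.03, adjusted p = 0.792). The locus overlaps *4930579G18Rik* and *1700123O20Rik*, which have rows of their own.

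*Pnn* (chr12:59066919-59074017), which takes the place of *Acin1* in PSAP, held 174, 174 and 310 normalised reads in Ctrl and 138, 181 and 140 in cKO. The library Ctrl 3 was far above the other 5, and cKO 2 lay above Ctrl 1 and Ctrl 2. The log2 fold change was -0.47 with a 95% interval of -1.23 to 0.29 (limma adjusted p = 0.239). Without Ctrl 3 it was -0.19, and edgeR on the recovered reads called it lower with that library in (-0.52, adjusted p = 0.0232). Ctrl 3 was also the highest of the 6 libraries for *Rbm8a* and *Sap18*.

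*Sap18* (chr14:57798189-57804980), the small ubiquitin-like subunit common to both complexes, held 32.9, 42.7 and 52.6 normalised reads in Ctrl and 29.3, 37.6 and 25.0 in cKO. The groups overlapped, since cKO 2 exceeded Ctrl 1. The mean went from 42.7 ± 9.85 to 30.6 ± 6.38 (SD, n = 3 each), and *Sap18* fell by 0.46 on the log2 scale (95% interval -0.84 to -0.08, limma adjusted p = 0.0438). Leaving out Ctrl 2, Ctrl 3, cKO 1 or cKO 3 ended the call, with adjusted p-values of 0.150, 0.110, 0.118 and 0.141, as did limma without a trend (0.104) and scaling to total reads (0.262). Without Ctrl 3 the log2 fold change was -0.30. Its copy *Sap18b* has the same 519 coding bases in the annotated transcripts compared, and a run of 780 bases was identical between their transcripts, so reads from there cannot be assigned to either gene and the values of both are uncertain. *Sap18b* held 2.82, 4.90 and 6.70 normalised reads in Ctrl and 2.78, 3.02 and 1.48 in cKO (log2 fold change -0.73, limma adjusted p = 0.0233), and its groups overlapped too. Its call was lost without Ctrl 2, Ctrl 3 or cKO 3 (adjusted p = 0.0764, 0.128 and 0.135), without a trend (0.0714) and after scaling to total reads (0.0742).

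*Ncbp1* (chr4:46138511-46172403), the large subunit of the nuclear cap-binding complex, held 161, 178 and 174 normalised reads in Ctrl and 144, 144 and 149 in cKO. All cKO libraries were below all Ctrl libraries. The mean went from 171 ± 9.04 to 146 ± 2.68 (SD, n = 3 each), and *Ncbp1* fell by 0.23 on the log2 scale (95% interval -0.39 to -0.07, limma adjusted p = 0.0160), a change of -14.7%. The locus overlaps *Tstd2*. The call was lost without cKO 1 (adjusted p = 0.0669) or cKO 2 (adjusted p = 0.0599) and without a trend (adjusted p = 0.0680), and scaling to total reads left -0.03 (adjusted p = 0.814). Quantile normalisation also ended it (-0.13, adjusted p = 0.146).

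Counted by groups that did not overlap, 1 member was higher (*Casc3*) and 3 were lower (*Eif4a3*, *Magoh* and *Ncbp1*), where 30.9% of all genes were higher and 28.0% lower by this count. Among the 7983 genes at or above the mean level of the lowest member, limma called 27.8% higher and 32.8% lower.

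The split of the calls by direction differed between scalings. Over all genes the deposited scaling gave 3725 higher and 3351 lower calls. After scaling to total reads there were 5169 higher and 1936 lower, with the median over all genes at 0.19, and median centring gave 2992 and 4355, with a median of -0.10. Among the members, the higher calls were *Casc3* and *Acin1* and the lower calls *Eif4a3* and *Magoh* after scaling to total reads, while median centring left no higher call and the 4 lower ones. *Eif4a3* and *Magoh* were lower under every scaling tried, and *Ncbp1*, *Sap18* and *Casc3* were not called under each of them.

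**Figure D3:**
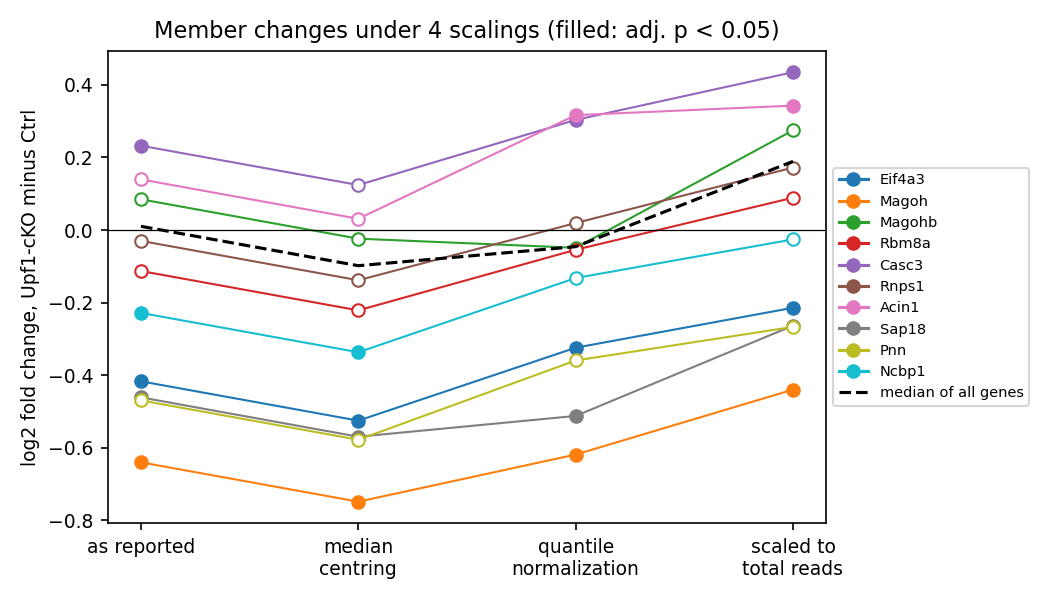
log2 fold change (*Upf1*-cKO minus Ctrl) of each member under 4 scalings, 1 line per member, with filled points where the adjusted p was below 0.05. All lines lie higher after scaling to total reads and lower after median centring than as reported, quantile normalisation moves members in different directions, and the lines of *Magoh* and *Eif4a3* stay below 0 and filled throughout.

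Ratios between members within a library do not depend on its scaling, apart from the added 0.5 read, and 6 were taken for genes that share a complex or replace each other. The log2 ratio of *Magohb* to *Magoh* was -2.89, -2.57 and -2.56 in Ctrl and -1.60, -2.07 and -2.12 in cKO. All cKO libraries had a larger share of *Magohb*. The mean difference was 0.74, and the exact permutation test, two-sided and with 20 possible assignments, gave p = 0.1, the smallest it allows with n = 3 per group (0.2 after Benjamini-Hochberg adjustment over the 6 ratios). With 3 libraries per group this test cannot go below 0.1 for any of the ratios.

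The log2 ratio of *Casc3* to *Eif4a3* was -0.69, -0.92 and -0.75 in Ctrl and -0.07, -0.27 and -0.06 in cKO. The groups did not overlap. The difference was 0.65 (exact permutation p = 0.1, adjusted 0.2). In cKO the normalised reads of both genes came close to each other, but these reads are not corrected for length. The RefSeq-matched exons hold 3741 bases for *Casc3* and 1509 for *Eif4a3*. Per length, *Casc3* stayed below *Eif4a3* in cKO, with means of 36.7 and 99.9 in the units of the length comparison below. The log2 ratio of *Pnn* to *Acin1*, which compete for the same partners, was -0.91, -0.97 and -0.43 in Ctrl and -1.51, -1.23 and -1.40 in cKO. These groups did not overlap either, although those of *Pnn* and of *Acin1* taken alone did. The difference was -0.61 (exact permutation p = 0.1, adjusted 0.2).

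The other 3 ratios overlapped between the groups. The sum of *Magoh* and *Magohb* over *Rbm8a* had a difference of -0.41 (exact permutation p = 0.2, adjusted 0.3), with the highest cKO library between the Ctrl values. *Rbm8a* over *Eif4a3* had a difference of 0.31 (exact permutation p = 0.3, adjusted 0.36). *Ncbp1* over *Ncbp2*, the large over the small subunit of the cap-binding complex, differed by 0.09 (exact permutation p = 0.4, adjusted 0.4) and the subunits themselves had log2 fold changes of -0.23 and -0.31. The difference in this ratio was 0.015 without cKO 2 and 0.15 without cKO 3.

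**Figure D4:**
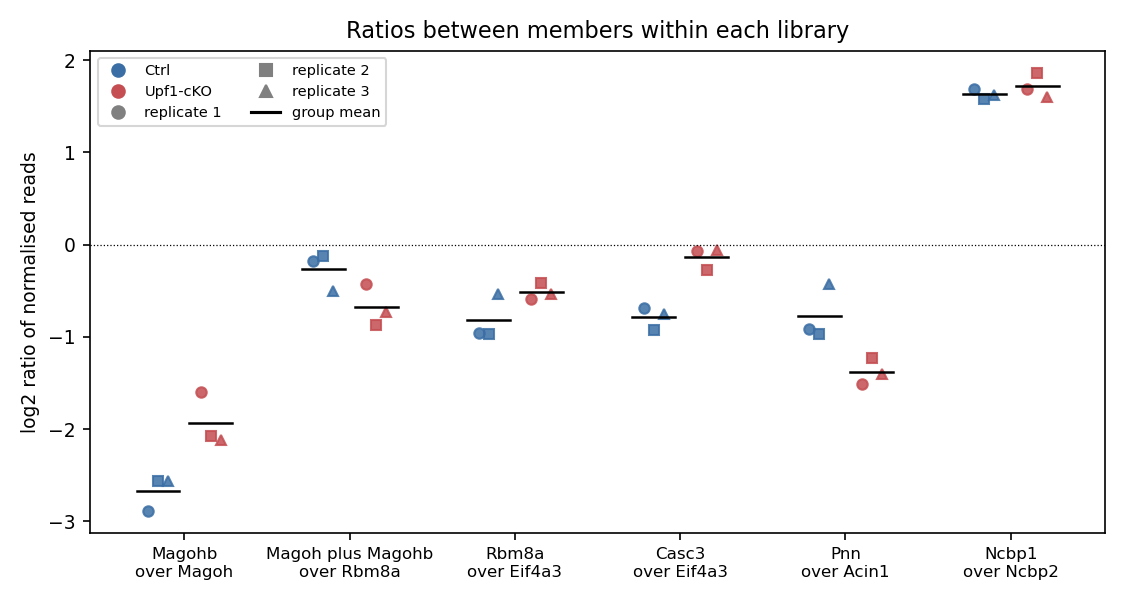
log2 ratio of normalised reads for 6 pairs of genes within each library, with 1 point per library and the group means. The groups separate for *Magohb* over *Magoh*, *Casc3* over *Eif4a3* and *Pnn* over *Acin1*, and overlap for the other 3.

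Levels were compared between members per length, as normalised reads per 1000 bases of RefSeq-matched exons. In Ctrl, *Eif4a3* at 133.7 ± 10.3 and *Magoh* at 118.6 ± 9.13 (SD, n = 3) were the highest and overlapped each other. They stood apart from *Acin1* at 72.7 ± 9.81, which overlapped *Pnn* at 62.9 ± 22.7. Below these, *Pnn* and *Ncbp1* (56.9 ± 3.0) overlapped, and so did *Ncbp1* and *Rnps1* (56.4 ± 1.32).

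The rest of the Ctrl order was *Rbm8a* at 44.2 ± 8.51, *Casc3* at 31.2 ± 0.765, *Magohb* at 10.1 ± 1.95 and *Sap18* at 8.34 ± 1.92, and within it *Magohb* and *Sap18* alone overlapped. In cKO, *Eif4a3* was still the highest at 99.9 ± 4.64 normalised reads per 1000 bases and lay apart from the next gene. *Acin1* came next at 79.8 ± 5.70 and overlapped *Magoh* at 75.4 ± 1.99. *Magohb* at 10.8 ± 2.50 and *Sap18* at 5.98 ± 1.25 were again the lowest members, and the range of *Sap18* now lay under that of *Magohb*. Above them, neighbours from *Ncbp1* through *Pnn* and *Rbm8a* to *Casc3* each overlapped the next. The place of *Sap18* is uncertain in both groups. It was divided by 5125 bases, the joint length of all its RefSeq-matched exons, and reads from the run of 780 bases shared with *Sap18b* cannot be assigned.

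Genes of the steps before and after the complex, and paralogs and copies of its members, were read from 5 lists, of which 44 of 47 genes had a row. In all, 15 rose, 10 fell and 19 did not pass the test, with a median log2 fold change of 0.04. The table as a whole had 27.7% higher and 25.0% lower. Scaling to total reads gave 22 higher and 4 lower, and median centring gave 11 and 14.

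Of the 6 genes for loading and recycling of the complex, 3 rose and none fell, with a median of 0.25. *Cwc27*, a spliceosomal partner of the factor that delivers EIF4A3, held 18.0, 18.3 and 28.8 normalised reads in Ctrl and 27.4, 34.0 and 27.4 in cKO (0.45, limma adjusted p = 0.0235). Its groups overlapped through Ctrl 3, and the call was lost without Ctrl 1, Ctrl 2 or cKO 2 (adjusted p = 0.0948, 0.116 and 0.115), without a trend (0.0927) and under quantile normalisation (0.0537). *Pym1*, whose protein takes the complex apart at the ribosome, rose by 0.34 (adjusted p = 0.0087), and *Ipo13*, which carries the MAGOH and RBM8A heterodimer back into the nucleus, rose by 0.35 (adjusted p = 0.00869). Neither overlapped between the groups. *Pym1* lost its call without cKO 3 (adjusted p = 0.0537) and without a trend (0.0545), and median centring ended the calls of *Cwc27* (0.0819), *Pym1* (0.0622) and *Ipo13* (0.0558). *Cwc22*, *Aqr* and *Srrm1*, which load the complex or bind it in the spliceosome, had log2 fold changes of 0.16, -0.10 and 0.00 and did not pass.

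Of the 6 partners of the cap-binding complex, 2 rose, 2 fell and 2 did not pass. *Srrt* (ARS2), which links the cap to RNA processing, held 417, 415 and 492 normalised reads in Ctrl and 782, 819 and 805 in cKO. The groups were far apart, and *Srrt* rose by 0.86 (limma adjusted p = 2.56e-08). *Ctif*, which joins the cap-binding complex to translation, rose by 1.17 (adjusted p = 0.000138) from a low level of 1.14 to 2.07 normalised reads in Ctrl to 4.15 to 5.36 in cKO. *Zc3h18* fell by 0.34 (adjusted p = 0.00228) and *Ncbp2*, the small cap-binding subunit, by 0.31 (adjusted p = 0.0164). Neither was called after scaling to total reads (-0.14 and -0.11, adjusted p = 0.237 and 0.397), and *Ncbp2* lost its call without Ctrl 2 or cKO 2 (adjusted p = 0.0666 and 0.107) and without a trend (0.0619).

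Of the 18 genes of TREX and mRNA export, which the complex and the cap help to bring to the mRNA, 2 rose, 5 fell and 11 did not pass, with a median of -0.12. *Thoc3*, a subunit of the THO core, held 93.7, 94.4 and 94.5 normalised reads in Ctrl and 151, 134 and 155 in cKO (0.63, limma adjusted p = 2.81e-06). *Ddx39a*, a paralog of the TREX helicase, rose by 0.33 (adjusted p = 0.00114), and its locus overlaps *Adgre5*, which has its own row. *Nxf1*, the export receptor itself, held 143, 140 and 156 in Ctrl and 111, 106 and 104 in cKO (-0.46, adjusted p = 8.32e-05). The THO subunit *Thoc6* fell by 0.53 (adjusted p = 0.00036) and *Poldip3*, an export adaptor, by 0.44 (adjusted p = 0.000387). The *Thoc6* locus overlaps *Bicdl2* and *Hcfc1r1*, so its value is uncertain. Calls on these 5 genes held in all 19 alternatives.

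Of the 11 NMD factors other than *Upf1*, 7 rose, 1 fell and 3 did not pass, with a median of 0.46. *Smg5*, whose protein binds phosphorylated UPF1 and takes part in its dephosphorylation, rose by 0.92 (limma adjusted p = 3.68e-08). *Smg1*, the kinase of UPF1, held 606, 555 and 544 normalised reads in Ctrl and 975, 933 and 928 in cKO (0.73, adjusted p = 6.35e-08). *Smg8*, a subunit of the kinase complex, fell by 0.29 (adjusted p = 0.0345). That call was lost after scaling to total reads (-0.09, adjusted p = 0.514) and without Ctrl 2, cKO 1, cKO 2 or cKO 3 (adjusted p = 0.119, 0.0747, 0.0515 and 0.123). *Upf2* and *Upf3b*, which join the complex to UPF1 and were picked out after their values were seen, rose by 0.59 (adjusted p = 6.51e-06) and 0.33 (adjusted p = 0.0328). The groups of *Upf2* did not overlap and its call held in all 19 alternatives. Those of *Upf3b* overlapped through Ctrl 3, its log2 fold change was 0.20 without Ctrl 2, and its call was lost without Ctrl 1, Ctrl 2, cKO 2 or cKO 3 (adjusted p = 0.110, 0.168, 0.125 and 0.0706), without a trend (0.128), under median centring (0.147) and in DESeq2 (0.0548).

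**Figure D5:**
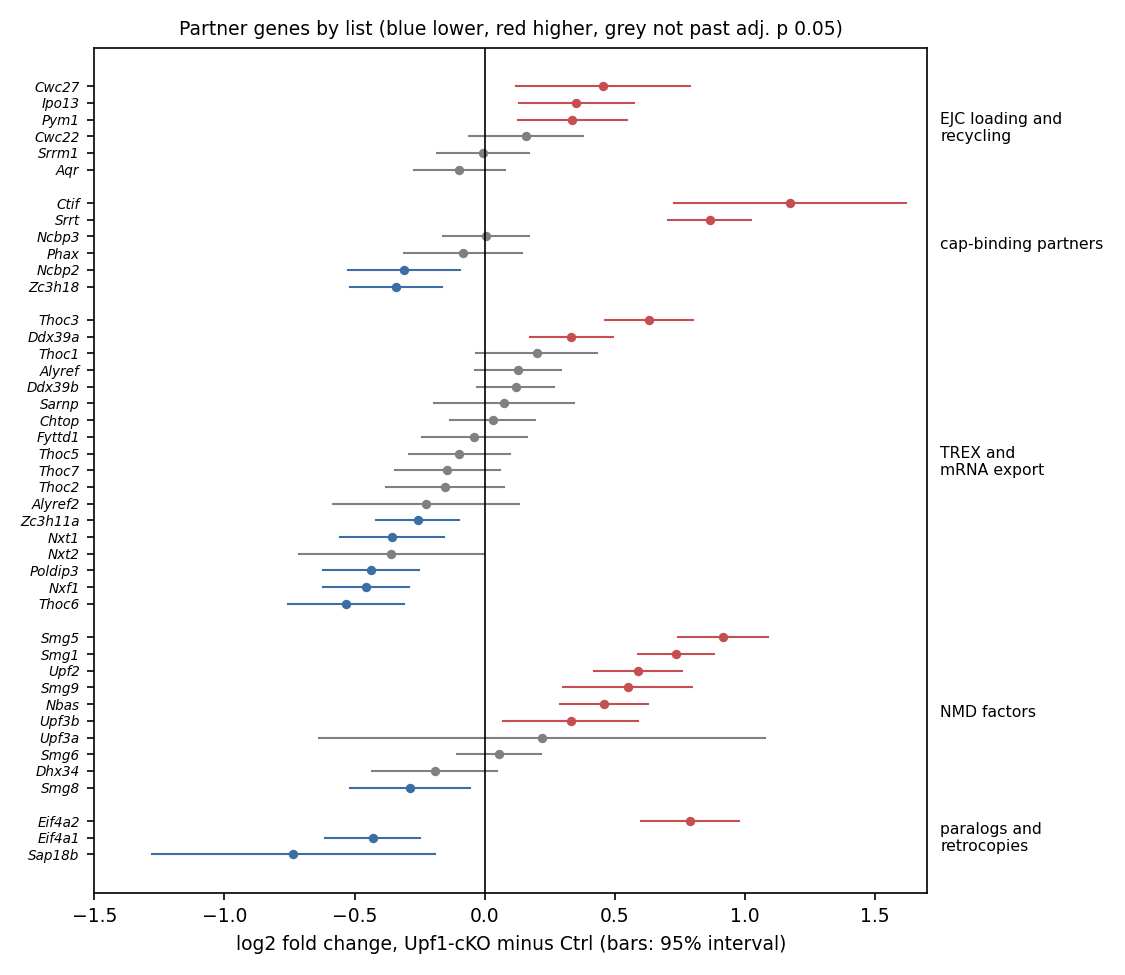
log2 fold change (*Upf1*-cKO minus Ctrl) with its 95% interval from limma for 43 of the 44 partner genes with a row, grouped by list, in blue where lower, red where higher and grey where not past an adjusted p of 0.05. The NMD factors lie mostly to the right, with *Smg5* at 0.92, and the export genes on either side, from *Thoc6* at -0.53 to *Thoc3* at 0.63.

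Paralogs and copies of the members were the last list, with 3 of 6 genes in the table. *Eif4a1* and *Eif4a2*, the translation initiation helicases related to *Eif4a3*, went in opposite directions. *Eif4a1* held 363, 480 and 440 normalised reads in Ctrl and 317, 315 and 313 in cKO (-0.43, limma adjusted p = 0.00041). *Eif4a2* held 280, 307 and 379 in Ctrl and 548, 558 and 549 in cKO (0.79, adjusted p = 8.49e-07). Neither pair of groups overlapped, and both calls held in all 19 alternatives. The *Eif4a2* locus overlaps *Rfc4* and the small nucleolar RNA genes *Snord2* and *Snora81*, which have rows of their own. *Eif4a3l1*, *Eif4a3l2* and *Rbm8a2* had no row.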

How the data were processed

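RNA-seq of early LPre-B cells covered 6 libraries, 3 Ctrl and 3 *Upf1*-cKO, grouped by their labels. Per the study's methods and the submitters' processing notes, ribosomal RNA was depleted, and single-end reads from a directional kit were trimmed (cutadapt 4.0), mapped to GRCm38 (mm10) with HISAT2 without strand, counted per gene with featureCounts 2.0.1 and processed with limma 3.48.0. Counting without strand cannot separate overlapping or antisense genes.

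Signal values on a linear scale were deposited by the authors. By the values themselves, each is (reads + 0.5) scaled to 1000000 reads of effective library size. Whole reads were recovered for every value (tolerance 0.02). Every gene exceeded 0.5 normalised reads in at least 3 libraries, so lower genes had been removed. No column lacked a sample.

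Symbols and positions came from a RefSeq table of GRCm38.p6 (13008 of 13426 IDs named). Exon lengths and sequences came from GENCODE transcripts. Groups were compared on log2(value + 1) in limma 3.58.1 (R 4.3.3), with trended, robust eBayes and Benjamini-Hochberg adjustment over 13426 genes; fold changes on this scale understate low genes. The script was tested on simulated data. The members and lists were chosen with earlier results of these data known. Named were all members, *Upf1*, the copies with a row, and at most 3 higher and 3 lower called genes of each other partner list by size of log2 fold change. A gene named by this rule and a marker of the sort are not reported here by name, and the gene is left out of the plot of partner genes. Alternatives (19) covered voom, edgeR 4.0.16 and DESeq2 1.42.0 on recovered reads, the replicate block, limma without a trend, other scalings, pseudocounts and filters, and each library left out.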

Additional observations from a re-analysis of the deposited data

How the results depend on the processing

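Under limma without an intensity trend 0 members were higher and 2 lower, under median centring 0 higher, under quantile normalisation 2 higher, and after scaling to total reads 2 higher and 2 lower, with 4 partner genes and 1936 of all genes lower. With each library left out in turn, members called ranged from 0 to 2 higher and from 2 to 4 lower. Over all genes the calls then ranged from 3224 to 3643 higher and from 2867 to 3350 lower. *Magohb* turned to -0.024 under median centring, -0.049 under quantile normalisation, -0.073 without Ctrl 1 and -0.085 without cKO 1 (range with each library left out -0.085 to 0.19). *Rbm8a* turned to 0.089 after scaling to total reads and 0.032 without Ctrl 3 (range -0.24 to 0.032), and *Rnps1* to 0.019 under quantile normalisation, 0.17 after scaling to total reads and 0.011 without cKO 1 (range -0.055 to 0.011). Causes were not tested. With the replicate number as a block, 3668 genes were higher and 3321 lower, members gave 1 and 4 and partner genes 15 and 10. Whether the replicate numbers pair the libraries was not settled. The deposited column labels gave same-numbered libraries consecutive numbers. Deviations of same-numbered libraries correlated at 0.13, -0.06 and -0.08 over 9202 genes, and not every library correlated best with its own number. With 3 libraries per group, these correlations cannot exclude pairing. The edgeR fit with the block was added after the data were seen; it called *Pnn* lower (adjusted p = 0.0221).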

Other observations

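Among the members, GENCODE annotates transcripts of the nonsense-mediated decay biotype for *Magohb* (3 transcripts) and *Pnn* (1), neither of which passed the test. Of the 11 partner genes with such a transcript, 4 were higher and 2 lower. Over the 3511 genes of the table with such a transcript 37.2% were higher and 19.5% lower (median log2 fold change 0.12), and over the 8644 genes without one 25.8% and 28.1% (median -0.02). The table holds reads per gene, so the level of these transcripts themselves was not analysed here.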
